A study of Rattus norvegicus with 24 samples.

Results

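The genes described here are 38 genes of fatty acid oxidation and its control by the peroxisome proliferator-activated receptors (PPARs), chosen by name. They were read in isolated colonic epithelial cells of rats on Illumina bead arrays, each of which reports 1 intensity per probe. A probe was tested if its signal exceeded the negative control beads (detection p-value under 0.05) on at least 6 of 24 arrays. The array has probes for 37 of the 38 genes, all but Ehhadh, and 35 of them passed this rule, of 7345 genes with a tested probe. Ppara, the receptor for which the pathway is best known, was detected on 4 arrays and Acadsb, the dehydrogenase of short branched chains, on 2, so neither was tested. A further probe each for Crat and Angptl4 was detected on 0 arrays, and 30 of the 35 tested genes were detected on all 24.

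All rats were Sprague Dawley and 8 months old. Their birth status was control (C) or intra-uterine growth retardation (IUGR, written R), and their food was chow (ND) or a high-fat diet (HFD), giving 6 CND, 5 CHFD, 6 RND and 3 RHFD samples. Arrays that carry the same number in their title (2 arrays each for the sample 10B of CHFD and for 21B, 25B and 3A, the whole of RHFD) are counted as 1 sample, and the labels do not say whether they are the same animal. The sources used here do not give how IUGR was induced, what the chow and the high-fat diet contained or how long they were fed, and they name no sex. Cells of proximal and distal colon were released with EGTA and EDTA, so each sample is a mixture of cell types from both ends of the colon.

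Fatty acids are activated to acyl-CoA by the synthetases of the Acsl family, carried into mitochondria by the carnitine shuttle, and shortened there in repeated cycles of dehydrogenation, hydration, a further dehydrogenation and thiolytic cleavage. Peroxisomes shorten very long and branched chains by a similar cycle. PPARs bind fatty acids, pair with a retinoid X receptor and switch on many genes of both pathways, and in colonic epithelium oxidation of butyrate, a short-chain fatty acid made by bacteria, is a main source of energy.

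Among the 35 tested genes, only Ucp2 and Hadha differed between diets past the threshold used here, an adjusted p under 0.05 over all 10193 tested probes, and they did so in IUGR rats and in both birth groups averaged. Both were lower on the high-fat diet. Ucp2 encodes a mitochondrial inner membrane carrier, and Hadha encodes the alpha subunit of the mitochondrial trifunctional protein, which hydrates and dehydrogenates long-chain intermediates. Because these results turn on those genes, their RefSeq promoter windows on the GRCr8 assembly are shown, from 250 bases before to 50 after the start that the window table uses, 5′ to 3′ on the strand of the gene. Capitals mark the only matches, on either strand, to GGGCGG (a GC box, here as its complement) and to CCAAT (here as its complement).
Hadha, chr6:31907551-31907850, plus strand: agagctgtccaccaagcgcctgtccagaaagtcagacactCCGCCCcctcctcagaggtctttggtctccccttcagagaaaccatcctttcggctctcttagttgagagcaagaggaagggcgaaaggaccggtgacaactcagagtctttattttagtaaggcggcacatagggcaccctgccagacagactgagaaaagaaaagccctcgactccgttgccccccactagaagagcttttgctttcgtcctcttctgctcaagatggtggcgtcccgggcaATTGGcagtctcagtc
Ucp2, chr1:164251123-164251422, plus strand: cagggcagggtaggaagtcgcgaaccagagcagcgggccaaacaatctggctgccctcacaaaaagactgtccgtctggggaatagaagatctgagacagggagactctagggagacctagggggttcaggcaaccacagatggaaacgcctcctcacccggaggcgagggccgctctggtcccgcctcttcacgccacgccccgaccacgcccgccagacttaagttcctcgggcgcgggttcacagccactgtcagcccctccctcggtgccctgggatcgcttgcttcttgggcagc
The window of Ucp2 holds neither motif. The neighbour of Hadha is Hadhb, which encodes the beta subunit of the same protein and runs the other way. The starts used for their windows lie 301 bases apart and the windows share 200 bases. The gene records come closer, with 243 bases between them, because the record of Hadhb begins 57 bases before the start used for its window.

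The windows of 30 of the 35 tested genes were searched for a PPAR element of the DR1 type, written as AGGTCA, any 1 base, and AGGTCA again, with at most 2 mismatches among its 12 fixed letters. Some windows, such as those of Hadha and Ucp2, use the start of the gene record, but others use a start inside it. That start lay 29730 bases inside for Plin2, 21718 for Acsl1, 2279 for Cpt1a and 1290 for Angptl4. For these genes the search did not cover the start of the record. A match occurred in 5 of the 30 (16.7%), in Slc25a20, Crat, Acadvl, Echs1 and Etfa, against 179 of the 6161 genes with both a tested probe and a window (2.91%) and 1020 of all 27457 windows (3.71%). The closest match, with 1 mismatch, began 17 bases before the start used for the window of Acadvl, chr10:55236656-55236955 (GRCr8, minus strand), which is 64 bases inside the gene record, and reads as follows, with the whole match in capitals.
Acadvl: AGGTCAGTGGTCA
AGGTCA by itself was found in 4 of 30 (13.3%), against 12.4% of the genes on the array and 15.7% of all windows. GGGCGG was found in 22 of 30 (73.3%), against 61.5% and 34.9%, and CCAAT in 11 of 30 (36.7%), against 38.2% and 37.7%. No DR1 match was found in the windows of Hadha, Hadhb or Ucp2. Of the 5 genes with a match, 0 passed the threshold in any of the 7 comparisons. At most 4.28% of all tested probes passed in any 1 comparison, so a count of 0 among 5 genes is uninformative. A match of letters is a description of these windows and shows no binding.

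Between 8303 and 9872 probes were detected per array, with a mean signal of 309.4 to 571.1. The 35 genes repeated closely on arrays of 1 sample: the median difference between both arrays was 0.09 to 0.13 on the log2 scale, the largest 0.63. Over all tested probes RND 17B stood apart from its group, with a median correlation to the other RND samples of 0.955 against 0.972 to 0.984 for the other 5, and it held the lowest RND value for 30.2% of probes and the highest for 33.6%. Among the 35 genes it was the lowest RND sample for 15 and the highest for 4. Without it 12 of the 35 diet differences in IUGR rats turned in sign or moved by over 1.5 times, with a shift over 0.1, as did 13 of the differences between birth groups on chow and 11 of the interactions. Such values are given without it where they are described.

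**Figure D1:**
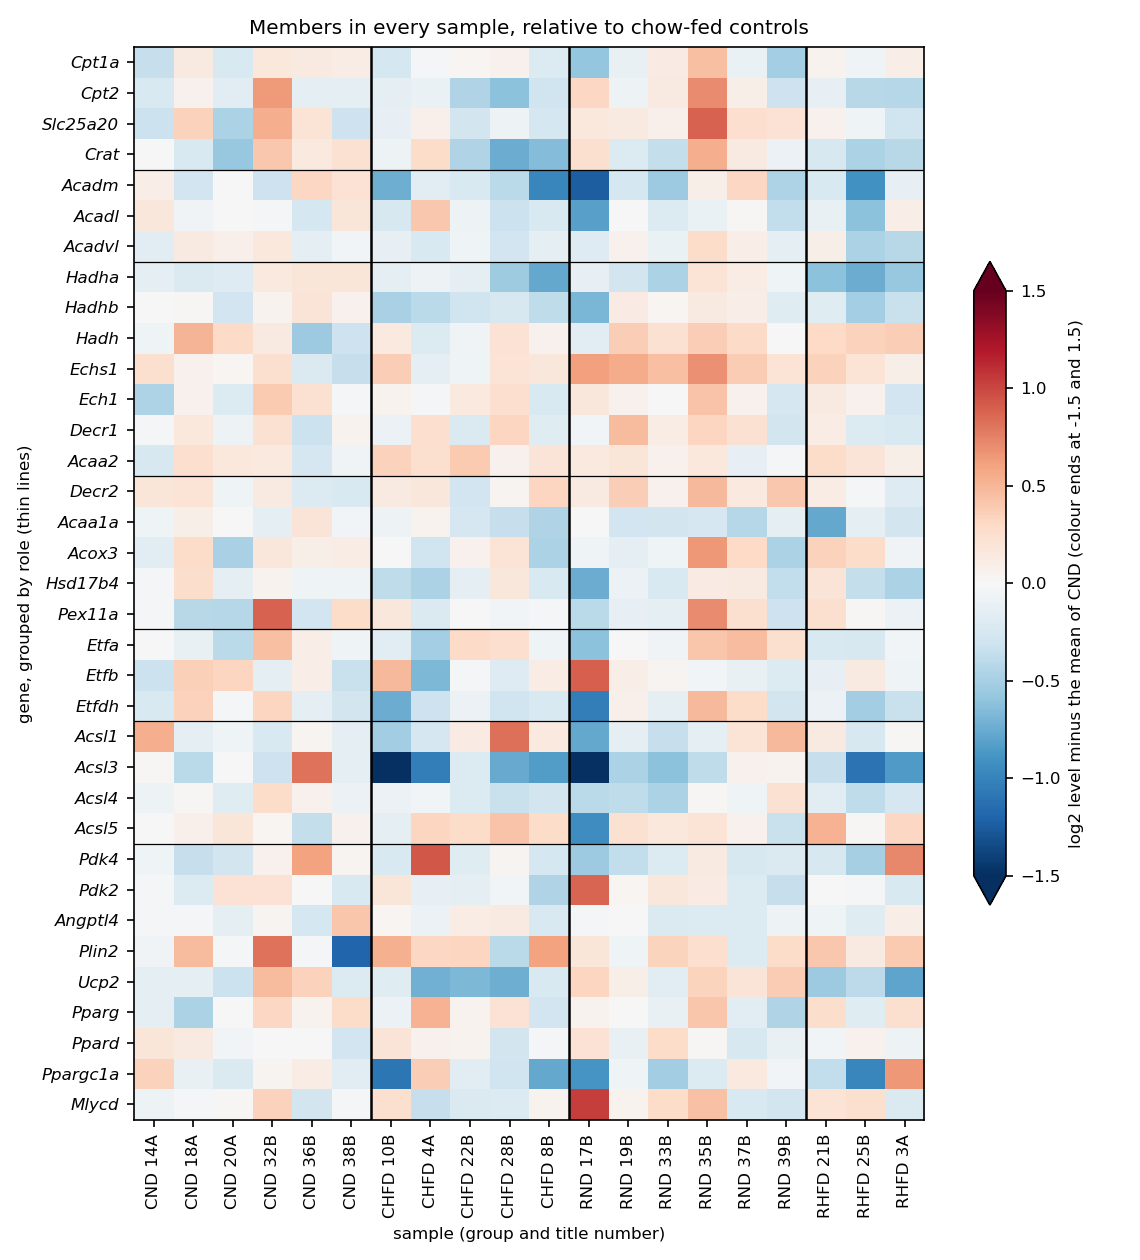
Log2 level of the 35 tested genes (rows, grouped by role) in the 20 samples (columns), minus the mean of chow-fed controls (CND), with blue below and red above. Ucp2 and Hadha are blue in all 3 RHFD samples, and RND 17B departs from the other RND samples in Acsl3, Acsl5, Etfdh, Etfb, Pdk2 and Mlycd.

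Ucp2 (probe ILMN_1349048) and Hadha (ILMN_1376331) were compared first in IUGR rats. The log2 level of Ucp2 was 10.89, 11.05 and 10.65 in the 3 RHFD samples, and in the 6 RND samples it ran from 11.27 through a median of 11.69 to 11.82. The log2 level of Hadha was 9.27, 9.14 and 9.31 in RHFD and ran from 9.41 through 9.79 to 10.08 in RND. For both genes every RHFD sample lay below every RND sample. Ucp2 fell by 0.76 on the log2 scale (SE 0.17, a level 0.589 times that on chow, 95% interval 0.462 to 0.750, limma adjusted p = 0.0274), and Hadha fell by 0.54 (SE 0.12, 0.688 times, 0.578 to 0.819, adjusted p = 0.0299). Without RND 17B the differences were -0.72 (limma adjusted p = 0.0467) and -0.51 (0.0437).

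These 2 of 35 genes passed in IUGR rats, both lower, where 0.883% of all tested probes passed in either direction and 0.324% were lower. At an unadjusted p under 0.05 there were 4 of 35 (11.4%), close to the 9.56% of all tested probes. Both calls rest on few samples: each was lost when any 1 of the 3 RHFD samples or RND 35B was left out, and Hadha also without RND 19B or RND 37B, while the differences stayed between -0.86 and -0.66 for Ucp2 and between -0.57 and -0.49 for Hadha in those fits. All RHFD arrays are repeats of 3 title numbers. With such arrays averaged, in a fit that also had no chip term, neither gene passed (limma adjusted p = 0.0815 for Ucp2 and 0.216 for Hadha). That fit therefore does not show the effect of averaging alone. Neither passed under median scaling (0.0723 and 0.115), on chip 1 alone (0.244 and 0.338) or on chip 2 alone (0.193 and 0.147), and Hadha did not pass without the chip term (0.244). Of the 35 genes, 3 had no overlap between RHFD and RND, namely Hadha, Ucp2 and Slc25a20, the carnitine-acylcarnitine carrier of the inner membrane, against 5.99% of all tested probes. Slc25a20 itself did not pass (-0.39, 95% interval -0.80 to 0.03, limma adjusted p = 0.559).

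In control rats the same genes lay lower on the high-fat diet but did not pass. Ucp2 was 11.26, 10.72, 10.77, 10.71 and 11.21 in the 5 CHFD samples and ran from 11.12 through 11.30 to 11.92 in CND. Hadha was 9.73, 9.80, 9.73, 9.35 and 9.11 in CHFD and ran from 9.66 through 9.89 to 10.06 in CND. The groups overlapped for both: 3 of 5 CHFD samples lay below all CND samples for Ucp2 and 2 of 5 for Hadha. The difference was -0.50 for Ucp2 (SE 0.15, 95% interval -0.81 to -0.19, limma adjusted p = 0.101) and -0.33 for Hadha (SE 0.11, -0.55 to -0.11, adjusted p = 0.156).

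The response of these genes was not shown to differ between birth groups. The interaction was -0.26 for Ucp2 (95% interval -0.73 to 0.20) and -0.21 for Hadha (-0.55 to 0.12), each with a limma adjusted p of 0.972. With both birth groups averaged, Ucp2 fell by 0.63 (SE 0.11, adjusted p = 0.00108) and Hadha by 0.43 (SE 0.08, adjusted p = 0.00163), or by 0.61 (adjusted p = 0.00162) and 0.42 (0.00185) without RND 17B. They were again the only 2 of 35 past the threshold, beside 4.28% of all tested probes in either direction and 1.74% lower, and 9 of 35 (25.7%) had an unadjusted p under 0.05, against 13.9% of all tested probes. Within each chip of 12 arrays the averaged difference of Ucp2 was -0.46 (limma adjusted p = 0.144) and -0.76 (0.0313), and that of Hadha was -0.43 (0.109) and -0.41 (0.0721).

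**Figure D2:**
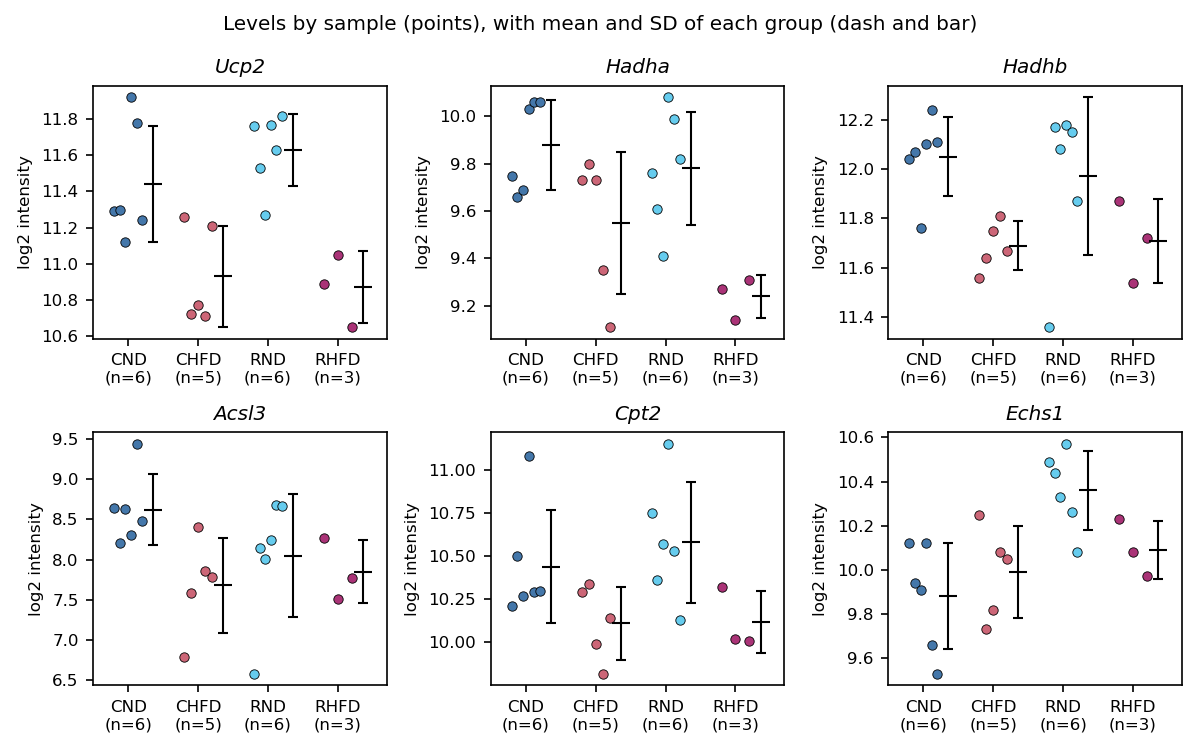
Log2 intensity of 6 genes in each sample (points) by group, with the group mean and SD (dash and bar) beside the points. RHFD samples lie below all RND samples for Ucp2 and Hadha, while CHFD and CND overlap, and 1 RND sample lies far below the others for Hadhb and Acsl3.

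Markers of some other cells moved with the diet beside these results. The summed level of 8 T and natural killer cell markers on the array was 285 to 573 in CND, 788 to 3972 in CHFD, 380.3 to 1230.3 in RND and 1119.8 to 1702 in RHFD, on the linear intensity scale. Of these 8, 6 passed in control rats, 0 in IUGR rats and 8 with both birth groups averaged, all higher. In IUGR rats all 8 also lay above 0 (median 1.11), each with an unadjusted limma p under 0.05. The 6 macrophage and dendritic markers summed to 864 to 2210.4 in CND, 2779 to 4755 in CHFD, 1511 to 2795 in RND and 2516 to 4352 in RHFD, with 4 past the threshold in control and 3 in IUGR rats, all higher. Adipocyte markers summed to 439 to 1062 in CND, 250.0 to 679 in CHFD, 498 to 1661 in RND and 326 to 349 in RHFD. Of the adipocyte markers Lep was detected on 0 arrays. Of the 6 tested, 1 passed in IUGR rats, Fabp4, the fat-cell fatty acid binding protein, which fell by 3.88 (limma adjusted p = 0.000439). Car3 and Lipe lay at -1.09 and -0.78 there, and Adipoq, Cfd and Cidec at -0.01, 0.03 and 0.26. Thus 4 of the 6 lay below 0, with a median of -0.40. The 4 endocrine markers summed to 2274 to 5408 in CND, 3109.8 to 7168 in CHFD, 1100.1 to 2599 in RND and 3833 to 7514 in RHFD. Of these Chga and Chgb, proteins of secretory granules, rose in IUGR rats by 1.38 (limma adjusted p = 0.0274) and 1.96 (0.0112). Pyy and Gcg lay at -0.08 and -0.59 there, and 0 of 4 passed in control rats. With both birth groups averaged Gcg fell by 0.77 (limma adjusted p = 0.0351), while Chga and Chgb rose by 0.78 (0.0252) and 1.31 (0.00282). The 5 mast cell markers on the array, 3 of them tested, summed to 193 to 562 in CND, 528 to 947 in CHFD, 278 to 454 in RND and 652 to 1598 in RHFD. All 3 tested lay above 0 in control and in IUGR rats. Of them 1 passed in control rats, 0 in IUGR rats and 3 in the average, all higher. Also in the average, 1 of 7 tested markers of surface colonocytes passed, the water channel Aqp8, which fell by 3.30 (limma adjusted p = 0.000356). Car1, Car4, Slc26a3, Krt20, Guca2a and Guca2b lay between -0.08 and 0.07. Of the goblet cell markers Clca1 rose by 1.37 (0.00735) and Spink4 fell by 2.22 (0.00691). Tff3 and Agr2 lay at 0.73 and -0.37 and did not pass. The 7 epithelial markers on the array, which include Epcam, Cdh1 and Vil1, were detected on all 24 arrays, and their sum overlapped between all groups (79873 to 118386), with 0 past the threshold by limma in either diet comparison and 0 at an unadjusted p under 0.05. Of 2 tested markers of B and plasma cells and 4 of crypt and proliferating cells, 0 passed in any diet comparison. Both B cell markers turned in sign, with Cd79b at 0.81 and Ms4a1 at 0.11 in control rats and -0.68 and -0.16 in IUGR rats. Of 7 markers of smooth muscle and fibroblasts and 2 of endothelium on the array, 0 were detected often enough to be tested. The part of these cells in the levels of Ucp2 and Hadha was not tested, and in such mixed samples fewer cells of a type cannot be told apart from less RNA per cell.

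The carnitine shuttle moves long chains across the mitochondrial membranes, and none of its 4 genes passed in either diet comparison. The median difference of the 4 was -0.23 in control and -0.40 in IUGR rats, against -0.08 and -0.10 for all 35 genes and -0.0016 and -0.0040 for all tested probes. Cpt2, the inner carnitine palmitoyltransferase, was 10.32, 10.02 and 10.01 in RHFD against 10.13 through 10.55 to 11.15 in RND, and 10.29, 10.34, 9.99, 9.82 and 10.14 in CHFD against 10.21 through 10.30 to 11.08 in CND. 1 RHFD sample lay above the lowest RND sample, and 3 of 5 CHFD samples lay below all CND samples. The averaged difference of Cpt2 was -0.39 (95% interval -0.65 to -0.13, limma adjusted p = 0.0830). Among the alternatives it passed only without RND 39B (-0.44, adjusted p = 0.0400).

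Crat, which exchanges short acyl groups between carnitine and CoA, was 7.99, 7.76 and 7.81 in RHFD against 7.87 through 8.25 to 8.77 in RND, and 8.15, 8.50, 7.78, 7.49 and 7.58 in CHFD against 7.66 through 8.31 to 8.64 in CND. Its groups overlapped in both diet comparisons. The averaged difference was -0.37 (-0.63 to -0.11, limma adjusted p = 0.113), and among the alternatives it passed only without CHFD 4A (-0.43, adjusted p = 0.0485). Cpt1a, the outer and rate-controlling palmitoyltransferase, ran from 9.88 to 10.91 over the 20 samples, and its lowest and highest samples were both in RND. Its diet differences lay on either side of 0, at -0.08 in control rats (95% interval -0.42 to 0.26) and 0.15 in IUGR rats (-0.23 to 0.54), or 0.06 without RND 17B.

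The acyl-CoA dehydrogenases take the first step of each cycle. Acadm, for medium chains, was 11.28, 11.84, 11.78, 11.61 and 11.03 in CHFD against 11.70 through 12.06 to 12.32 in CND, so 3 of 5 samples lay below all CND samples. In RHFD it was 11.78, 11.10 and 11.89, inside the RND range of 10.77 through 11.65 to 12.32. The difference was -0.51 in control rats (95% interval -0.93 to -0.08, limma adjusted p = 0.324) and -0.07 in IUGR rats (-0.55 to 0.41). Without RND 17B, the lowest RND sample, it was -0.24 in IUGR rats. For Acadl, for long chains, the differences were -0.10 and 0.04 (-0.08 without RND 17B), and for Acadvl, for very long chains, -0.17 and -0.27, none past the threshold.

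The later mitochondrial steps hold Hadha and 6 further genes. Hadhb, the thiolase subunit of the trifunctional protein, was 11.56, 11.64, 11.75, 11.81 and 11.67 in CHFD against 11.76 through 12.09 to 12.24 in CND, and 4 of 5 CHFD samples lay below all CND samples. In RHFD it was 11.87, 11.54 and 11.72, and the RND range of 11.36 through 12.11 to 12.18 enclosed them because of RND 17B, the lowest RND sample. The averaged difference of Hadhb was -0.32 (95% interval -0.54 to -0.09, limma adjusted p = 0.119). Among the alternatives it passed only without RND 17B (-0.38, adjusted p = 0.00884). Calls over all tested probes also rose in that fit, from 436 to 536.

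Since Hadha and Hadhb start next to each other and encode subunits of 1 complex, their levels were compared over the 20 samples, a pair picked after its values were seen. Pearson's r was 0.49 (permutation p = 0.0313) and Spearman's rho 0.52 (permutation p = 0.0213). Without RHFD 25B and CHFD 8B, the samples farthest from the median of Hadha, r was 0.36, and without RND 17B it was 0.60. After each group's mean was removed r was 0.15, and over the 12 arrays of each chip r was 0.09 and 0.81, so the relation did not hold within the groups or within both chips. It was the only relation of this kind computed.

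The other later steps stood on both sides of 0. In control rats 5 of the 7 genes of these steps were above 0 and 2 below, with a median of 0.03, and in IUGR rats 2 were above and 5 below, with a median of -0.24. Acaa2, the mitochondrial thiolase, was 0.24 higher in CHFD (95% interval 0.01 to 0.48, limma adjusted p = 0.438) and 0.12 higher in RHFD (-0.15 to 0.38). Hadh, the dehydrogenase of medium and short chains, was 0.03 and 0.16 higher (0.08 in IUGR rats without RND 17B), and neither passed. The hydratase Echs1, the isomerase Ech1 and the reductase Decr1, which handles unsaturated chains, lay at 0.11, 0.04 and 0.01 in control rats and -0.27, -0.10 and -0.24 in IUGR rats, none past the threshold.

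Neither the peroxisomal genes nor the electron carriers had a member past the threshold. Of 5 peroxisomal genes, Acox3 (an oxidase of branched chains), Hsd17b4 (the multifunctional enzyme), Acaa1a (the thiolase), Decr2 (a reductase) and Pex11a (a factor of peroxisome division), 0 passed in either diet comparison by limma and 0 reached an unadjusted p under 0.05. Their differences ran from -0.22 to 0.07 in control and from -0.31 to 0.15 in IUGR rats. Etfa, Etfb and Etfdh, which pass electrons from the dehydrogenases to the respiratory chain, had medians of -0.05 and -0.22, and none passed. All 3 were below 0 in both birth groups, but without RND 17B Etfb was 0.01 in IUGR rats, Etfa -0.35 and Etfdh -0.41.

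**Figure D3:**
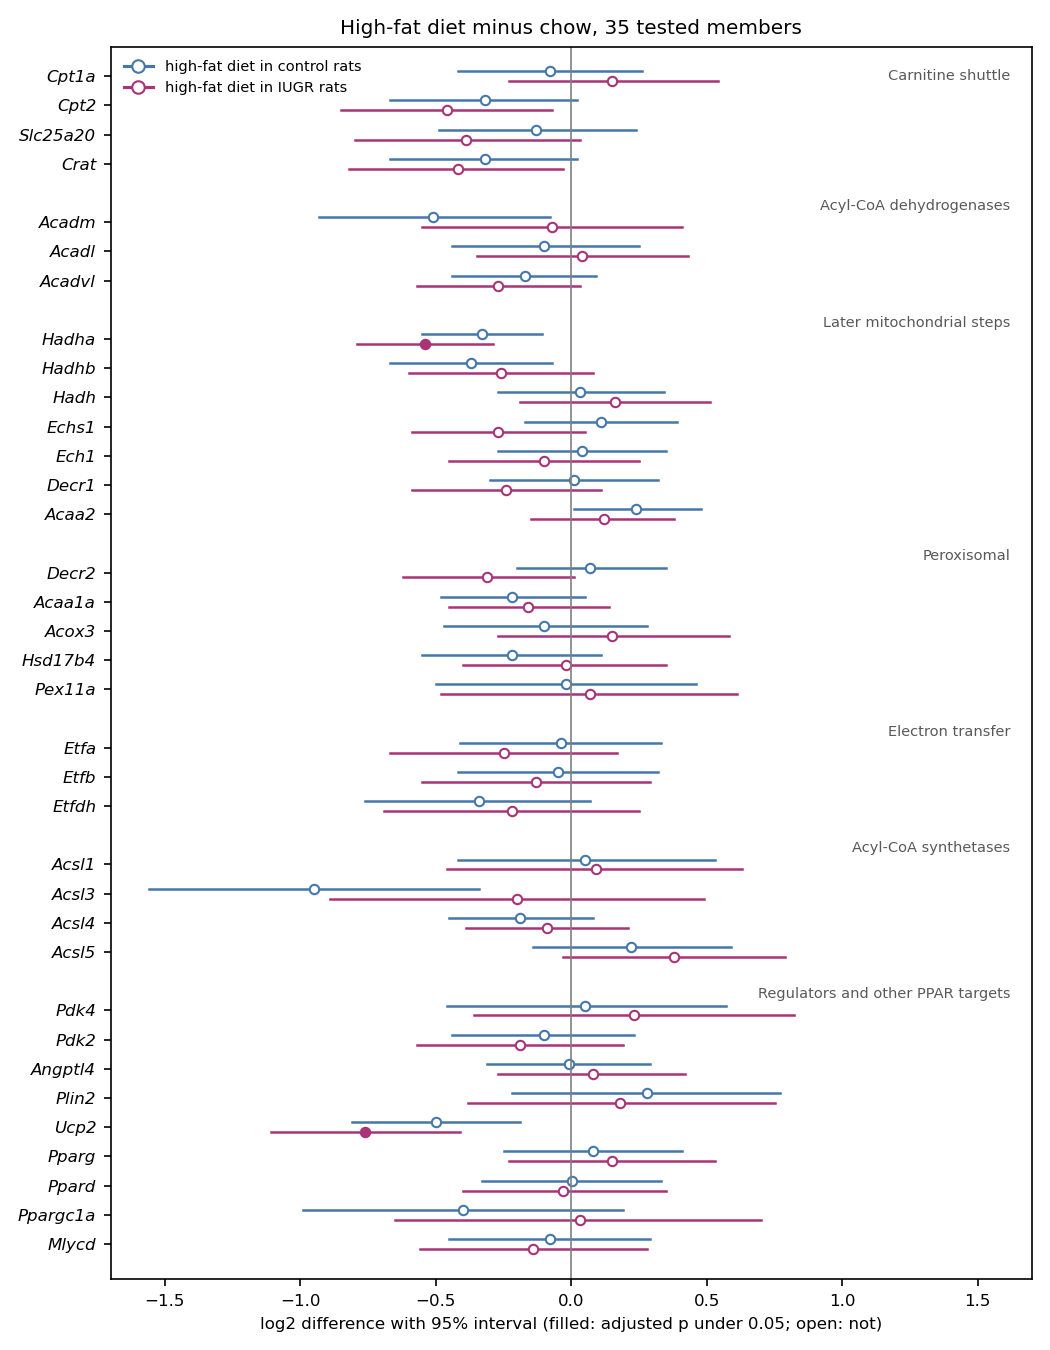
Log2 difference between high-fat diet and chow for the 35 tested genes by role, in control (blue) and IUGR rats (purple), with 95% intervals; filled points have an adjusted p under 0.05. The only filled points are Ucp2 and Hadha in IUGR rats, and the widest shift in control rats is the open point of Acsl3 at -0.95.

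Of the acyl-CoA synthetases, Acsl3, found on the endoplasmic reticulum and lipid droplets, had the largest difference of all 35 genes in control rats. It was 6.79, 7.58, 8.41, 7.86 and 7.78 in CHFD and ran from 8.21 through 8.56 to 9.44 in CND, so 4 of 5 CHFD samples lay below all CND samples. The difference was -0.95 (SE 0.30, 95% interval -1.56 to -0.34) and did not pass (limma adjusted p = 0.125). In RHFD Acsl3 was 8.27, 7.51 and 7.77, inside the RND range of 6.58 through 8.19 to 8.68, with a difference of -0.20 (-0.89 to 0.49), or -0.48 without RND 17B. The interaction of Acsl3 was 0.75 (-0.17 to 1.67, limma adjusted p = 0.972), or 0.48 without that sample. RND 17B decided its call. That sample is in neither group of the control comparison and enters it through the chip term, the correlation of repeated arrays and the spread, which all groups share. Without RND 17B Acsl3 passed in control rats (-0.95, limma adjusted p = 0.0341). Calls over all 10193 tested probes also rose there, from 132 to 198. Acsl3 also passed in both averaged (-0.72, adjusted p = 0.0196), against -0.57 (adjusted p = 0.190) with that sample. In the average, calls over all tested probes rose from 436 to 536 without it.

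The other synthetases differed in sign. Acsl5, common in intestinal epithelium, was 0.22 higher in CHFD (95% interval -0.14 to 0.59) and 0.38 higher in RHFD (-0.03 to 0.79), with 4 of 5 CHFD and 2 of 3 RHFD samples above every sample of the matching chow group, and it did not pass (limma adjusted p = 0.752 and 0.556). RND 17B held the lowest RND value of Acsl5, and without it the difference in IUGR rats was 0.20 (adjusted p = 0.755). Acsl1, the synthetase of liver, fat and muscle, ran from 5.89 to 7.49 over the 20 samples, and its diet differences were 0.05 and 0.09 (-0.02 without RND 17B). Acsl4, which prefers arachidonate, was detected on 8 of 24 arrays, and its differences of -0.19 and -0.09 are close to background.

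Besides Ucp2, the set holds Plin2, Pdk4 and Angptl4 as PPAR targets outside the oxidation cycle, and none of the 3 passed. Plin2, the coat protein of lipid droplets, was 9.81, 9.59, 9.60, 8.88 and 9.88 in CHFD against 8.09 through 9.26 to 10.10 in CND, and 9.68, 9.41 and 9.67 in RHFD against 9.07 through 9.50 to 9.61 in RND. Of RHFD samples 2 of 3 lay above all RND samples, but the differences of 0.28 (95% interval -0.22 to 0.77) and 0.18 (-0.38 to 0.75) had intervals that include 0. Pdk4, the kinase that holds back glucose oxidation when fat is burned, was detected on 13 of 24 arrays. Its level was near 5 in most samples and high only in CHFD 4A (5.92), RHFD 3A (5.71) and CND 36B (5.59), and the differences were 0.05 (-0.46 to 0.57) and 0.23 (-0.36 to 0.82). Angptl4, a secreted inhibitor of lipoprotein lipase, was detected on 6 of 24 arrays and on 0 of the 6 RND arrays, and it ran from 4.49 to 5.17 over the 20 samples, so no fold is given for it.

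The tested receptors and the coactivator were detected on all 24 arrays. Pparg, which is abundant in colonic epithelium, ran from 9.77 through 10.28 to 10.56 in CND, from 9.96 to 10.77 in CHFD, from 9.80 through 10.20 to 10.67 in RND and from 10.07 to 10.51 in RHFD. The groups lay almost on top of each other, and the diet differences were 0.08 (95% interval -0.25 to 0.41) and 0.15 (-0.23 to 0.53). Ppard differed by 0.0034 (-0.33 to 0.33) and -0.03 (-0.40 to 0.35). Ppargc1a, the coactivator of mitochondrial biogenesis, was 5.82, 7.27, 6.73, 6.60 and 6.13 in CHFD and 6.53, 5.92 and 7.55 in RHFD, while it ran from 6.68 through 6.87 to 7.24 in CND and from 6.01 through 6.77 to 7.05 in RND. Both high-fat groups thus reached below and above their chow group, with differences of -0.40 (-0.99 to 0.19) and 0.03 (-0.65 to 0.70), the latter -0.09 without RND 17B. Pdk2, a further pyruvate dehydrogenase kinase, and Mlycd, which degrades malonyl-CoA, the inhibitor of Cpt1a, lay at -0.10 and -0.08 in control and at -0.19 and -0.14 in IUGR rats, none past the threshold. Without RND 17B, the highest RND sample for both, they lay at -0.04 and 0.02 in IUGR rats.

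Over the whole set, the diet comparison in control rats called 0 of 35 genes by limma, beside 1.30% of all tested probes, with 6 of 35 (17.1%) at an unadjusted p under 0.05, against 10.8% of all tested probes. Of the 35 differences 23 lay below 0 in control and 22 in IUGR rats (65.7% and 62.9%), where 50.2% and 50.6% of all tested probes did. For 34 of the 35 genes the 95% interval lay within a 2-fold change in each of both comparisons, the exceptions being Acsl3 in control and Ucp2 in IUGR rats. The interval reached a median of 0.34 to either side of the difference in control and 0.39 in IUGR rats, which limits what could be seen. No gene of the set separated CHFD from CND without overlap (0 of 35, against 1.71% of all tested probes). The comparisons of diet in each birth group and the average share their samples, so the averaged counts add no independent support.

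A list of 93 further genes of fatty acid breakdown, peroxisomes and lipid handling held 58 with a tested probe. None of these passed in control or in IUGR rats by limma, though 13 (22.4%) and 6 (10.3%) had an unadjusted p under 0.05, against 10.8% and 9.56% of all tested probes. With both birth groups averaged, 4 were lower and 1 was higher, where 4.28% of all tested probes passed. Lipe, hormone-sensitive lipase, fell by 0.79 (adjusted p = 0.00570) and is also on the adipocyte marker list. Phyh, which starts the peroxisomal breakdown of branched phytanic acid, fell by 0.57 (adjusted p = 0.0467). Slc27a4, a fatty acid transport protein of the small intestine, fell by 0.47 (adjusted p = 0.0471). Dbi, the acyl-CoA binding protein, fell by 0.39 (adjusted p = 0.0188). Mcee, an epimerase of propionate breakdown, rose by 0.41 (adjusted p = 0.0216). Each of the 5 had the same sign in both birth groups, from -0.80 to -0.37 for those that fell, and 0.44 and 0.39 for Mcee. These 5 calls were not equally stable: over 29 alternatives of the processing Lipe passed in 27, Dbi and Mcee in 24 each, Slc27a4 in 10 and Phyh in 6. The median of the 58 was -0.01 in control and -0.12 in IUGR rats.

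The effect of birth status was asked on each diet. On chow 0 of 35 genes passed by limma, as did 0% of all tested probes, and 2 of 35 (5.71%) had an unadjusted p under 0.05, against 12.1% of all tested probes. Echs1, the short-chain enoyl-CoA hydratase, came nearest. It ran from 10.08 through 10.39 to 10.57 in RND and from 9.53 through 9.93 to 10.12 in CND, and 5 of 6 RND samples lay above all CND samples. The difference was 0.48 (SE 0.13, 95% interval 0.21 to 0.75, limma adjusted p = 0.208), and 0.45 without RND 17B (adjusted p = 0.305). On the high-fat diet Echs1 was 10.23, 10.08 and 9.97 in RHFD and 10.25, 9.73, 9.82, 10.08 and 10.05 in CHFD, a difference of 0.10 (-0.23 to 0.43).

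Decr2, the peroxisomal reductase, ran from 7.77 through 7.96 to 8.19 in RND and from 7.47 through 7.73 to 7.90 in CND, with a difference of 0.27 (95% interval 0.01 to 0.54, limma adjusted p = 0.402). RND and CND overlapped for it, as for each of the 35 genes (0 without overlap, against 0.755% of all tested probes). Acsl3 was 0.56 lower in RND (-1.15 to 0.02), but only 0.29 lower without RND 17B, and Acadm, 0.35 lower (-0.76 to 0.05), was 0.19 lower without it. The median of the 35 was -0.0037.

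On the high-fat diet 0 of 35 genes passed between RHFD and CHFD by limma, beside 0.00981% of all tested probes, and 1 of 35, Hadha, had an unadjusted p under 0.05 (2.86%, against 1.04% of all tested probes). Hadha differed by -0.31 (95% interval -0.57 to -0.05, limma adjusted p = 1.000), and its RHFD values of 9.14 to 9.31 lay inside the CHFD range of 9.11 to 9.80. Hadh alone had no overlap between RHFD (11.10, 11.14 and 11.17) and CHFD (10.95, 10.59, 10.75, 11.02 and 10.87), as had 1.41% of all tested probes, and it differed by 0.30 (-0.06 to 0.66, adjusted p = 1.000). Acox3, detected on 20 of 24 arrays, was 5.40, 5.33 and 5.01 in RHFD and 5.06, 4.76, 5.13, 5.26 and 4.58 in CHFD, a difference of 0.29 (-0.16 to 0.73). The median of the 35 was 0.0016.

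Averaged over diet, birth status called 0 of 35 genes by limma, beside 0.00981% of all tested probes, with 4 of 35 (11.4%) at an unadjusted p under 0.05, against 4.25% of all tested probes. These were Echs1 (0.29), Hadha (-0.21), Acaa1a (-0.21) and Hadh (0.24), each with an adjusted p of 1.000. The interaction of birth status and diet called 0 of 35, as it did 0% of all tested probes, and 0 of 35 had an unadjusted p under 0.05, against 4.05% of all tested probes. The interval of the interaction reached a median of 0.52 to either side of the estimate, more than in any of the other 6 comparisons.

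**Figure D4:**
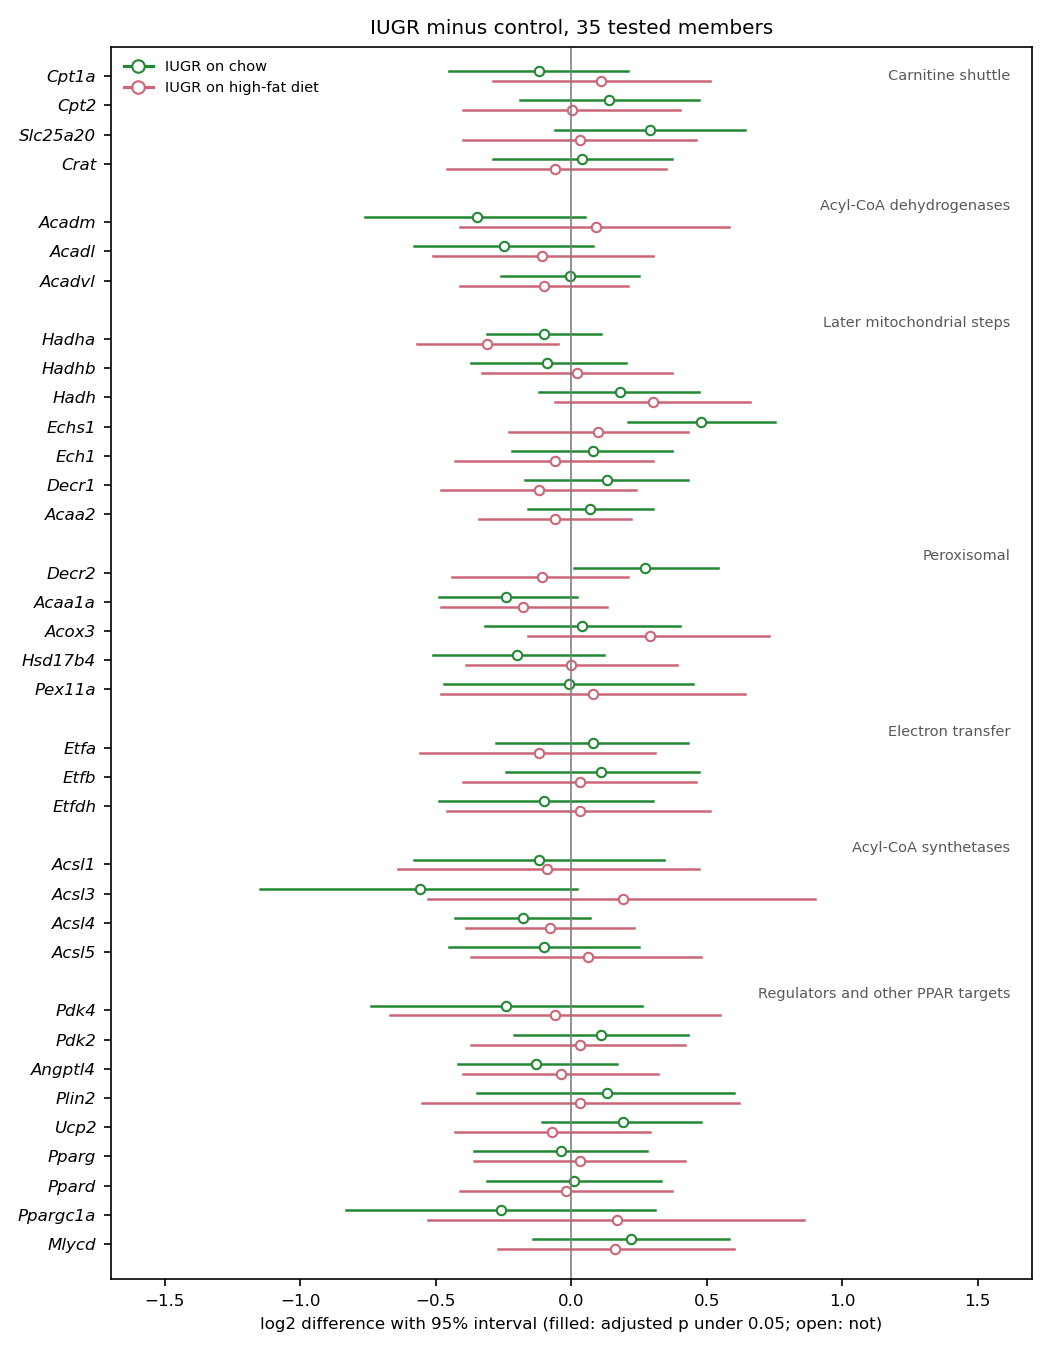
Log2 difference between IUGR and control rats for the 35 tested genes by role, on chow (green) and on high-fat diet (red), with 95% intervals. All points are open, as none had an adjusted p under 0.05, and Echs1 on chow (0.48) has its interval farthest above 0.

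**Figure D5:**
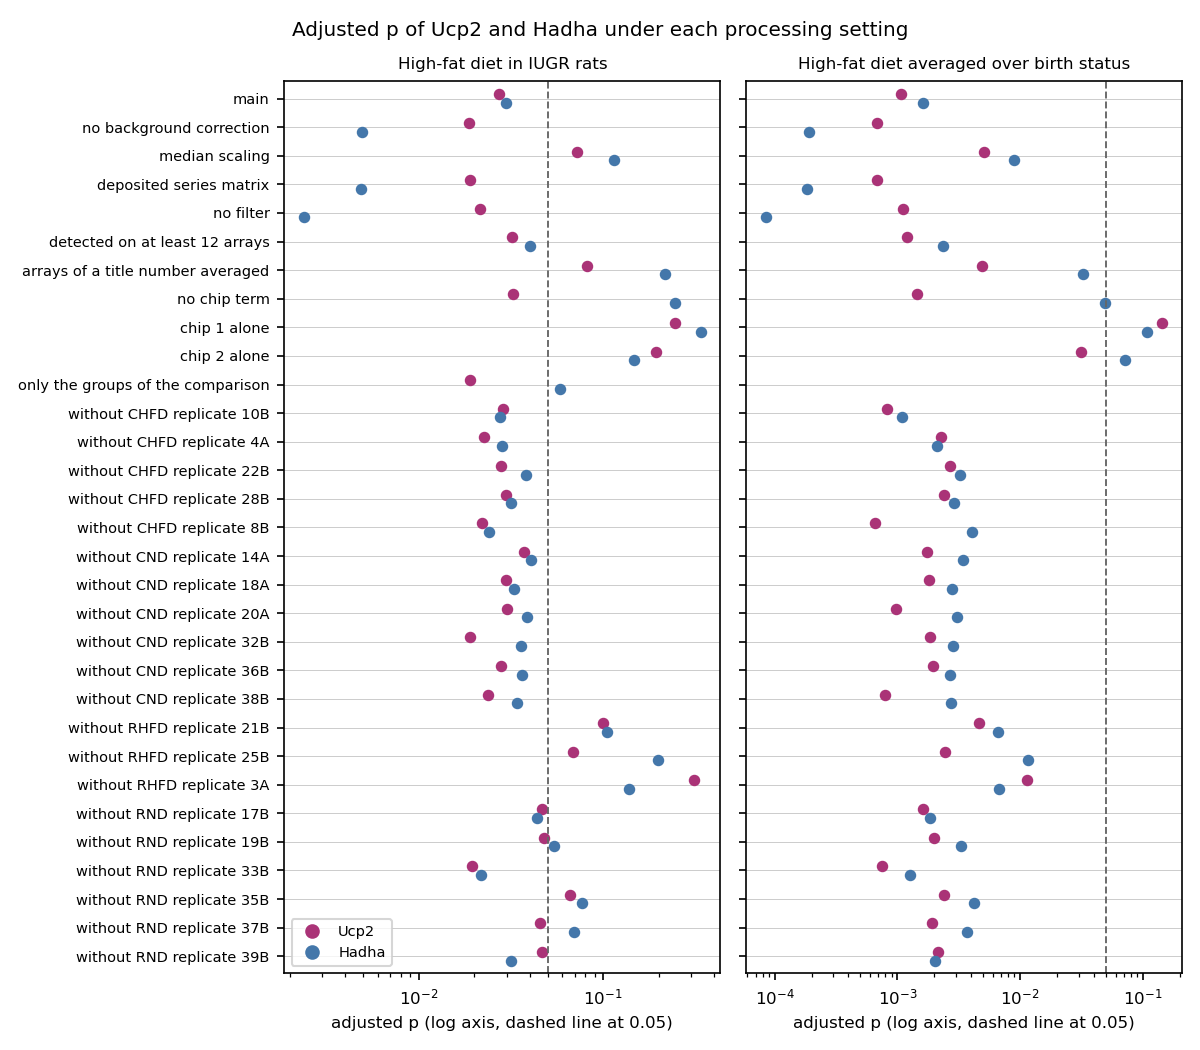
Adjusted p (log axis) of Ucp2 (purple) and Hadha (blue) for the diet comparison in IUGR rats and for both birth groups averaged, under each processing setting (rows). In IUGR rats both lie right of the dashed line at 0.05 under median scaling, with arrays of a title number averaged and on either chip alone. They also do so without any 1 RHFD sample or RND 35B, while in the average they cross it only on single chips. The fit with averaged arrays had no chip term.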

How the data were processed

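Per the file headers, a deposited table gives the mean signal intensity, before normalization, of 22523 probes on each of 24 arrays. It also holds the authors' detection p-value, which compares a probe with the negative control beads of its array. Per the labels, the arrays were read with GenomeStudio, with no version or settings stated there. The deposited series matrix holds intensities of the same arrays that the authors had already normalized between arrays, by a method read only from their values, which have nearly the same distribution on every array as after quantile normalization, and served as an alternative.

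The neqc function (limma 3.58.1, statmod 1.5.0, R 4.3.3) removed background, whose level it infers from detection p-values, added an offset of 16, equalised the quantiles and took log2. This left 10193 probes that were detected (p-value under 0.05) on 6 or more arrays. The model had terms for the 4 groups and for the chip (2 chips of 12 arrays, 3 arrays of each group on each), and limma fitted it to all arrays. Arrays of 1 title number entered as a random block (correlation 0.812). The Benjamini-Hochberg adjustment ran over all tested probes within each of 7 comparisons. The labels do not state that samples are separate animals, so p-values measure only the spread between these samples and their repeat arrays. The number of samples, only 3 in RHFD, limits the precision.

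A gene with several tested probes is represented by the one with the highest mean. Means and SDs are over samples, with arrays of 1 title number averaged. Genes were named by the platform's table and checked against RefSeq (GRCr8), where all 35 tested genes kept a symbol through their gene identifier. Promoter windows are from RefSeq. The text gives sample values for genes past the threshold, for the 3 genes with the smallest p that did not pass in each comparison of 2 groups, and for a list of well-known genes of the pathway. Hadhb and Slc25a20 were added after their values were seen. The genes, lists, rules and alternatives were chosen with earlier results of these data known. The functions were tested on simulated data. Alternatives were the background correction, the scaling, the deposited series matrix, the detection filter, the treatment of repeated arrays and of the chip, the groups fitted and each sample left out.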

Additional observations from a re-analysis of the deposited data

Results flagged for a closer look

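In the groups of 5 or 6 samples, 10 of 105 gene and group combinations (9.52%) had a sample whose gap to its nearest neighbour was large for the range of the group. The same share over all tested probes was not computed, so no excess in these genes is read from it. All values are log2 levels. In the carnitine shuttle these were Cpt2 at 11.08 in CND 32B, where the next sample was 10.50, and Slc25a20 at 8.53 in RND 35B, next to 7.89. Etfb, an electron carrier subunit, was 6.68 in RND 17B, next to 5.88. Of PPAR targets, Pdk4 was 5.92 in CHFD 4A, next to 5.03, and Plin2 was 8.88 in CHFD 28B, next to 9.59. The acyl-CoA synthetases held the other 5. Acsl1 was 7.20 in CND 14A, next to 6.70. Acsl3 was 9.44 in CND 36B, next to 8.64, and 6.58 in RND 17B, next to 8.01. Acsl5 was 7.46 in CND 36B, next to 7.82, and 7.68 in CHFD 10B, next to 8.09.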

How the results depend on the processing

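The number of tested genes past the threshold moved in the 3 diet comparisons and stayed at 0 in the other 4 under every alternative that gave a value. In control rats it was 0, and 1 (Hadha) with no background correction (-0.30, adjusted p = 0.0434), with the deposited series matrix (-0.30, 0.0430) and with no detection filter (-0.32, 0.0475). Leaving out samples gave 0 to 1. In IUGR rats it was 2, and 0 under median scaling, on chip 1 alone and on chip 2 alone. It was also 0 with arrays of a title number averaged, in a fit that had no chip term. It was 1 (Ucp2) with only the chip term left out and with only the groups of the comparison fitted, and 0 to 2 with samples left out. Under median scaling Ucp2 was -1.02 (adjusted p = 0.0723) and Hadha -0.76 (0.115). The difference of Hadha was -0.54 with arrays averaged, -0.52 on chip 1 and -0.56 on chip 2. With both birth groups averaged it was 2, and 0 on chip 1 alone, 1 on chip 2 alone and 2 to 4 with samples left out. The 35 genes kept a median below 0 in each diet comparison under median scaling (-0.23, -0.31 and -0.28), which moved the median of all probes to -0.10. The cause of these shifts was not tested. Fitting only the groups compared cannot be done for the averages or the interaction, and in control rats it used the block correlation of all arrays. No paired analysis was possible because the groups share no title number.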
